A study of Homo sapiens with 12 samples.

Results

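The genes described are 8 genes of DNA replication and the cell cycle in a human hepatoma line, Huh7, with a construct for A1CF whose expression is switched on by doxycycline. They are the helicase genes MCM2, MCM3 and MCM5, the sliding clamp gene PCNA, the transcription factor gene E2F1, the cyclin gene CCND1, the kinetochore motor gene CENPE and the cyclin-dependent kinase inhibitor gene CDKN1C. They were chosen by symbol among genes that the authors had called different between G398S cells with and without doxycycline, so their calls and the direction of their change are a description, and no test of them was made. All 8 have a row among the 1863 rows of the G398S comparison, and 0 of 8 have a row among the 142 rows of the WT comparison.

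The labels describe 12 libraries in 4 groups of 3: Huh7 cells with a G398S A1CF construct and doxycycline, the same cells without it, Huh7 cells with a WT A1CF construct and doxycycline, and these without it. A1CF is an RNA-binding cofactor of apolipoprotein B mRNA editing, and the study asked how its mutant and wild-type forms differ in controlling lipid metabolism. Each construct is represented by 1 clone, no group received doxycycline without a construct, and the labels do not tell whether the 3 libraries of a group are separate cultures. RNA was measured as FPKM, the number of fragments scaled to transcript length and library size. Each group has a pooled value from the authors, so no value per library and no spread between libraries can be given, and the depth of the libraries is unknown. Bulk RNA cannot tell fewer cells in cycle from less RNA per cell.

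Before a cell copies its DNA, the MCM helicase is loaded onto replication origins in G1, and it unwinds DNA once S phase starts. Cyclin D1 with its kinases inactivates the retinoblastoma protein, which releases E2F transcription factors to switch on MCM genes, PCNA and many other S phase genes. CDK inhibitors such as p57, the product of CDKN1C, hold the same kinases back, and CENP-E carries chromosomes to the spindle equator in mitosis.

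All 8 genes were lower with doxycycline in the G398S clone. The 7 genes that drive the cycle fell 1.27-fold to 1.45-fold, with a median log2 fold change of -0.43. CDKN1C, the inhibitor, moved in the same direction as the drivers and not against them, with a 2.27-fold lower value, but at less than 1 FPKM in both groups. The authors' call at a q-value of 0.05 covered 12.4% of 17072 tested genes in either direction. The rows analysed that were lower made up 5.86% of the tested genes, and those that were higher 5.06%. As the genes were chosen from these calls, nothing is read from 8 of 8 against these shares.

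Promoters of 4 genes are shown because E2F1 stands among the genes that fell and its family is known to act through a short element in the promoters of replication genes. RefSeq promoters, 250 bases before to 50 after the gene start on GRCh38.p14, were available for 5 of the 8 genes, namely MCM2, MCM3, PCNA, E2F1 and CENPE, with 2 starts for PCNA. Both strands were searched for an E2F-type motif, written out as TTTGGCGC, TTTCGCGC, TTTCCCGC, TTTGCCGC, TTTGGCGG, TTTCCCGG, TTTGCCGG or TTTCGCGG. The promoters of 4 of the 5 genes hold it, and capitals mark the matches below. They lie at chr3:127598161-127598460 (plus strand) for MCM2, chr6:52284693-52284992 (minus strand) for MCM3, chr20:33686336-33686635 (minus strand) for E2F1 and chr20:5126573-5126872 (minus strand) for PCNA.
MCM2: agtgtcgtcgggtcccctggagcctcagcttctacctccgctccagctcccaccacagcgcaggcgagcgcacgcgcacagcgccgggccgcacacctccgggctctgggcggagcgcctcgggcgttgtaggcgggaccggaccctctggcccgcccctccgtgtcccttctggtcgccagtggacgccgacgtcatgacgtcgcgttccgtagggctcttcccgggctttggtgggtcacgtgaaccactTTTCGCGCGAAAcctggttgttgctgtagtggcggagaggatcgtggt
MCM3: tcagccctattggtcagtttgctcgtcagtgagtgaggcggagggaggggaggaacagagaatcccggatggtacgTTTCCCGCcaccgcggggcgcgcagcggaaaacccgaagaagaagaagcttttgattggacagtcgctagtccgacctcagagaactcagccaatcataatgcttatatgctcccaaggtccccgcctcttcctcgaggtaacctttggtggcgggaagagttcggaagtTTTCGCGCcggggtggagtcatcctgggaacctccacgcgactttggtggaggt
E2F1: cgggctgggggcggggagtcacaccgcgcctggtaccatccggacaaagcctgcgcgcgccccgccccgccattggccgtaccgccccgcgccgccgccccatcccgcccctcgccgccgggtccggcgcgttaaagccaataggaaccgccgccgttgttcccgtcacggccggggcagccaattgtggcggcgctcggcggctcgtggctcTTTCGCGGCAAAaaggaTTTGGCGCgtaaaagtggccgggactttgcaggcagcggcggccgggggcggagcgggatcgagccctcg
PCNA: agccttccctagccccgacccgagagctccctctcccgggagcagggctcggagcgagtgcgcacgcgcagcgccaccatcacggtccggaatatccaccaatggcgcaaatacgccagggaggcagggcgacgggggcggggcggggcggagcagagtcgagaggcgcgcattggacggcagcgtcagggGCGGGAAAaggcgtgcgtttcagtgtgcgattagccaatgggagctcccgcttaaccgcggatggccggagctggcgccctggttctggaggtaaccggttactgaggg

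The matches differ in their distance from the gene start. In MCM2 a pair of overlapping matches, one on each strand, begins 3 and 7 bases into the transcript. MCM3 has matches that begin at -174 and -4, counted from the start with no 0. E2F1 itself has 3, at -37, -33 and -20, the first pair overlapping on opposite strands. PCNA has 1 match, at -59, which overlaps a GGGCGG element, while its other start (chr20:5119909-5120208) and CENPE (chr4:103198294-103198593, both on the minus strand) have none. CCAAT was found in 3 of the 5 genes (MCM3, PCNA and E2F1) and GGGCGG in 4 (all but MCM3).

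These counts can be set beside those of other promoters, with no test made. The E2F-type motif is in 6.19% of the 35116 promoters of the RefSeq table and in 7.43% of 27305 genes with a promoter there. Of other cell cycle genes that were called lower and are described further on, 13 of 28 hold it. Of those called higher, 1 of 8 with a promoter holds it. All licensing and fork genes with a row were lower, so this gap cannot be told apart from which lists the genes came from. Of all genes that were lower in the G398S table, the genes above included, 99 of 697 with a promoter hold it (14.2%). Of all that were higher, again with the genes above, 57 of 635 hold it (8.98%). CCAAT is in 39.7% of all genes with a promoter, 44.5% of the lower and 43.9% of the higher genes. Of the other cell cycle genes, however, 14 of 28 called lower and 1 of 8 called higher hold CCAAT. A gap of this kind was therefore not confined to the E2F-type motif. For GGGCGG the counts in these genes were 22 of 28 and 8 of 8. GGGCGG is in 48.3% of all genes with a promoter, 78.9% of the lower and 76.1% of the higher. Called genes thus held GGGCGG more often in both directions, so the share over all genes is not a matched background. A match is a description of letters and was not tested as a binding site or as a cause.

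**Figure D1:**
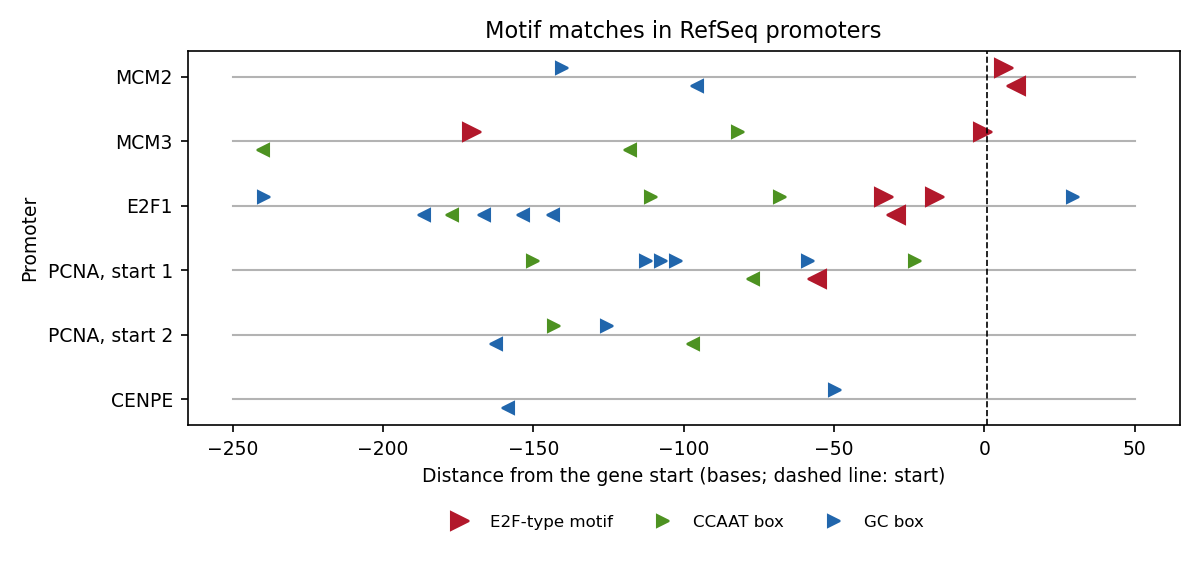
Positions of E2F-type, CCAAT and GGGCGG (GC box) motif matches in the RefSeq promoters of 5 genes, with 2 starts for PCNA, by distance in bases from the gene start (dashed line). Arrows that point right and sit above the line match the gene's strand, and arrows that point left match the other strand. E2F-type matches of MCM2 and E2F1 and the nearer one of MCM3 lie within 40 bases of the start.

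The 3 helicase genes fell to about the same degree. MCM2, a subunit of the ring that opens the duplex (chromosome 3, 127317200 to 127341278 on hg19), had 117 FPKM with doxycycline against 152 FPKM without, a log2 change of -0.39 in the authors' deposited table (q = 0.00544). MCM3 (chromosome 6, 52128812 to 52149679) had 83.8 FPKM with doxycycline against 113 FPKM without, and the authors' deposited table gives -0.43 on the log2 scale (q = 0.00104). MCM5 (chromosome 22, 35796116 to 35820495) was the least abundant, with 23.7 FPKM with doxycycline against 32.4 FPKM without and a log2 change of -0.45 in the authors' deposited table (q = 0.00194). The MCM5 row spans 0.444 times the RefSeq gene length, which limits its level and the ratios to it below. The proteins form 1 ring with an equal share of each, whereas their RNAs were unequal. The FPKM ratio of MCM2 to MCM5 was 4.91 with doxycycline and 4.71 without, and that of MCM3 to MCM5 was 3.53 with doxycycline and 3.48 without. The proportions among the 3 RNAs were thus close in both groups.

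PCNA encodes the ring that holds DNA polymerases on the template. It was the most abundant of the 8, with 326 FPKM with doxycycline against 413 FPKM without (chromosome 20, 5095599 to 5107268). Its level without doxycycline exceeded that of 98.3% of the rows of the G398S table. Its log2 change in the authors' deposited table, -0.34, was the smallest of the 8 (q = 0.0154). RefSeq places PCNA-AS1, an antisense RNA, over this gene. The kit keeps strand, but whether strand was used in the authors' counting is not stated, so reads of the antisense RNA could not be told apart. RefSeq also places a small nucleolar RNA gene, LOC124900464, over PCNA and a long noncoding RNA gene, LOC107986126, over MCM2. Whether their reads entered the values was not tested.

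E2F1 and CCND1 stand at the entry into S phase. E2F1, an activator of S phase genes (chromosome 20, 32263292 to 32274210), had 37.3 FPKM with doxycycline against 48.0 FPKM without, a log2 change of -0.36 in the authors' deposited table (q = 0.00725). CCND1, cyclin D1, the regulatory partner of the G1 kinases (chromosome 11, 69455873 to 69469242), had 51.7 FPKM with doxycycline against 74.7 FPKM without. Its log2 fold change was -0.53 in the authors' deposited table (q = 0.00104), so that 69.2% of the level without doxycycline was measured with it. The log2 change of CCND1 minus that of E2F1 was -0.17, against a standard error of the difference of 0.26.

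CENPE, the motor that moves chromosomes along spindle microtubules, represents mitosis. It is the longest of the 8 genes (chromosome 4, 104026961 to 104119566) and had 15.4 FPKM with doxycycline against 22.2 FPKM without. In size its log2 change in the authors' deposited table, -0.53, matched that of CCND1 (q = 0.00104).

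CDKN1C, which encodes the CDK inhibitor p57 and lies in an imprinted region (chromosome 11, 2904448 to 2906995), had 0.286 FPKM with doxycycline against 0.649 FPKM without. The authors' deposited table lists a log2 fold change of -1.18, with q = 0.0279, the highest among the 8 genes. With 1 FPKM added to both groups it shrank to -0.36, within the range of the drivers, and with 0.1 FPKM added it was -0.96. Only 6.76% of the rows had a lower level without doxycycline. CCND1 exceeded CDKN1C by 181-fold in FPKM with doxycycline and by 115-fold without.

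**Figure D2:**
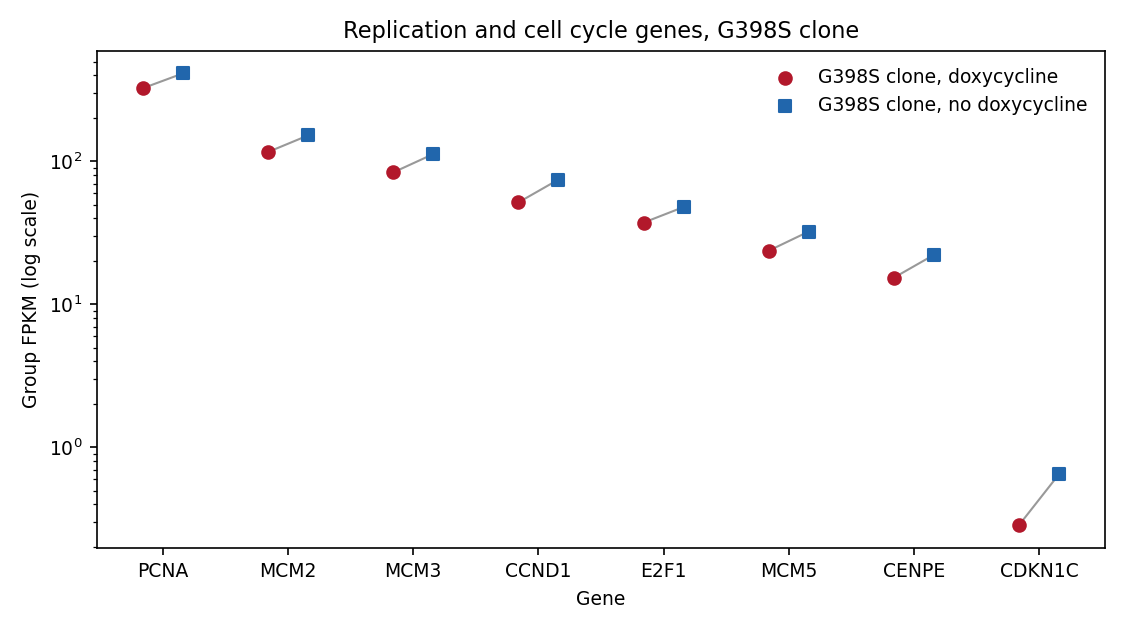
Pooled group FPKM, on a log scale, of the 8 genes in the G398S clone with doxycycline (red circles) and without it (blue squares), ordered by level, with a line joining the values of a gene. Every gene is lower with doxycycline, from 326 against 413 FPKM for PCNA to 0.286 against 0.649 FPKM for CDKN1C, and no error bars can be drawn because the authors pooled the libraries.

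The spread among the falls can be set beside an error taken from the authors' statistic, as a description. Dividing the log2 fold change by the authors' test statistic gives an implied standard error of 0.18 to 0.19 for the 7 drivers and of 0.63 for CDKN1C. The log2 change of CDKN1C minus that of PCNA was -0.84, with a standard error of 0.66. Among the drivers the widest gap was CENPE minus PCNA, at -0.19 with a standard error of 0.26. As all 8 were chosen from genes called lower, these gaps do not show whether the genes respond alike.

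The listed statistic and the listed p-values give different precision. A 95% interval of 1.96 implied standard errors runs from -0.89 to -0.17 for CENPE and from -0.72 to -0.002 for E2F1. The interval of PCNA runs from -0.71 to 0.02 and that of CDKN1C from -2.42 to 0.05. The p-values in the authors' deposited table are at least 21.2 times smaller than the normal p of the listed statistic for each of these genes, and 96.9 times at the median driver, so the authors' calls are firmer than these intervals. Which of the readings is closer to the spread between libraries cannot be told from pooled values.

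Set beside the rest of the G398S table, the drivers were among the more abundant genes, and their falls were spread over the lower and middle part of the range of called falls. Each had more RNA without doxycycline than at least 71.6% of the rows. The median log2 fold change of all 1000 lower rows was -0.47, and that of the 370 lower rows with at least the level of CENPE was -0.40. The fall of PCNA was larger than 14.6% of the falls in the table, that of MCM2 than 26.3%, that of MCM5 than 44.2%, and those of CCND1 and CENPE than 62.2% and 62.4%. The smallest fall the authors called was -0.29. The rows hold called genes alone, so level and size of change are not independent among them. Over all rows the median log2 fold change was -0.32, and relative to it the drivers ranged from -0.02 for PCNA to -0.21 for CENPE, and CDKN1C was at -0.86. That median comes from called genes alone, which lie on both sides of a gap around 0.

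**Figure D3:**
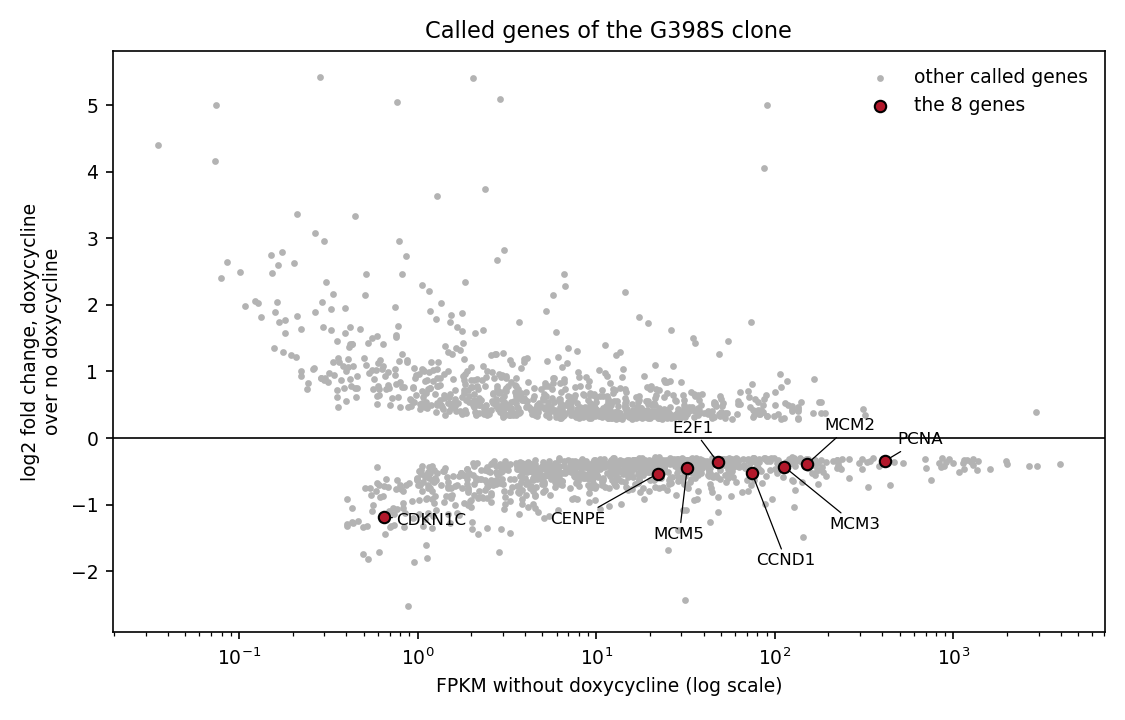
Log2 fold change with over without doxycycline against FPKM without doxycycline (log scale) for the 1863 called genes of the G398S clone, with the 8 genes in red and the others in grey. The 7 drivers lie within the lower band, between -0.34 and -0.53, and CDKN1C lies at low FPKM and -1.18.

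A stricter call kept fewer of the genes. At a q-value of 0.01, 6 of 8 were lower, against 3.3% of tested genes that were lower by this rule, with PCNA and CDKN1C outside it. Past a log2 change of 1 in size, CDKN1C alone was left, against 0.41% of tested genes.

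Other genes of the cycle were followed through 9 lists with 305 genes, of which 45 had a row in the G398S table, 36 lower and 9 higher. Without the 8 genes, 28 of 297 had a row and were lower (9.43%) and 9 had a row and were higher (3.03%), beside 5.86% lower and 5.06% higher among all tested genes. These 297 include genes that the authors may not have tested, and the difference between the shares was not tested. The median log2 fold change of the 37 rows was -0.37, beside -0.32 over all rows of the table. List genes found only on a row with several symbols count here as without a row. With such rows matched as well, 38 were lower and 9 higher. The kinetochore, spindle and mitosis list then had 6 lower, and the DNA damage checkpoint and repair list 5. A gene without a row may also have been called and left out of the rows analysed, as ranks of the p-values imply 251 such genes, so a missing row says nothing about change.

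On the origin licensing and firing list 7 of 30 genes had a row and were lower (23.3%, beside 5.86% of tested genes), 0 were higher and 23 had no row. Of the 7, 3 are the MCM genes described above, which were chosen because they were called and so raise the share of the list. CDC45, which joins the MCM ring in the active helicase, had 23.0 FPKM with doxycycline against 31.8 FPKM without. GMNN, geminin, which blocks a further round of licensing, fell 1.29-fold, and MCM10, a factor for helicase activation, fell 1.26-fold. The row of MCM7, another subunit of the ring, had 123 FPKM with doxycycline against 172 FPKM without, a log2 change of -0.48 in the authors' deposited table. That row spans 3.78 times the RefSeq length of MCM7, where AP4M1, TAF6 and CNPY4 are neighbours, so its reads may not come from MCM7 alone.

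On the replication fork and nucleotide supply list 10 of 47 genes had a row and were lower (21.3%, beside 5.86% of tested genes), 0 were higher and 37 had no row. PCNA, chosen because it was called, is 1 of the 10 and raises the share of the list. POLA2, a subunit of the polymerase that lays down primers, led with a log2 change of -0.56 in the authors' deposited table (8.71 FPKM with doxycycline against 12.9 FPKM without). POLD1, the catalytic subunit of polymerase delta that PCNA tethers, had 16.7 FPKM with doxycycline against 23.4 FPKM without. DCTPP1, which hydrolyses dCTP and its modified forms, and TK1, thymidine kinase, fell 1.40-fold and 1.36-fold. CHTF18, part of a clamp loader for PCNA, had 3.02 FPKM with doxycycline against 4.01 FPKM without. RPA1, RNASEH2A, RFC2 and UHRF1 made up the rest, with log2 changes of -0.39 to -0.31 in the authors' deposited table.

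Cyclins, kinases and their activators had 3 of 26 genes with a row, 2 lower and 1 higher. These are 7.69% and 3.85% of the list, beside 5.86% and 5.06% of tested genes. CCND1, chosen because it was called, is 1 of the 2 lower. CCNE1, cyclin E1, which acts after cyclin D1 at the start of S phase, fell along with CCND1, with 13.2 FPKM with doxycycline against 17.5 FPKM without (log2 fold change -0.40 in the authors' deposited table, q = 0.00544). SKP2, which marks CDK inhibitors for breakdown, was higher, with 186 FPKM with doxycycline against 135 FPKM without. The SKP2 row spans 2.07 times the RefSeq gene length, next to LMBRD2 and overlapping NADK2, so the symbol may not account for all of its reads.

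The E2F, RB and MYC list was divided, with 3 lower and 4 higher of 29. These are 10.3% and 13.8% of the list, beside 5.86% and 5.06% of tested genes. E2F1, chosen because it was called, is 1 of the 3 lower. E2F2, an activator like E2F1, had 1.93 FPKM with doxycycline against 2.76 FPKM without, and MYCN, a MYC family driver of growth, had 12.4 FPKM with doxycycline against 18.3 FPKM without. The MYCN row is 1.66 times as long as the RefSeq gene, and the antisense gene MYCNOS overlaps it. Among the higher genes were MXI1 and MXD1, which compete with MYC for its partner MAX, at 1.35-fold and 1.28-fold. MYCL was listed at 0.562 FPKM with doxycycline against 0.314 FPKM without, and its log2 change of 0.84 in the authors' deposited table shrank to 0.25 with 1 FPKM added. LIN54, a DNA-binding subunit of the complex that represses cycle genes in resting cells, was 1.24-fold higher.

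CDK inhibitors and antiproliferative genes, the list to which CDKN1C belongs, had 3 higher and 2 lower of 18. These are 16.7% and 11.1% of the list, beside 5.06% and 5.86% of tested genes. CDKN1C, chosen because it was called, is 1 of the 2 lower. CCNG2, a cyclin associated with cell cycle arrest, rose, with 5.48 FPKM with doxycycline against 3.20 FPKM without (log2 fold change 0.78 in the authors' deposited table, q = 0.00104). CDKN1A, the p21 inhibitor and a relative of CDKN1C, went the other way from it, with 0.539 FPKM with doxycycline against 0.288 FPKM without. Its log2 change of 0.90 in the authors' deposited table (q = 0.0470) was 0.26 with 1 FPKM added. CDKN2B, the p15 inhibitor of the cyclin D kinases, was 1.32-fold higher, but its row is 19.7 times as long as the RefSeq gene and covers the antisense gene CDKN2B-AS1. CCNG1, a cyclin that p53 induces, fell 1.26-fold, with 72.9 FPKM with doxycycline against 92.0 FPKM without. The CCNG1 row spans 0.386 times the RefSeq gene length.

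**Figure D4:**
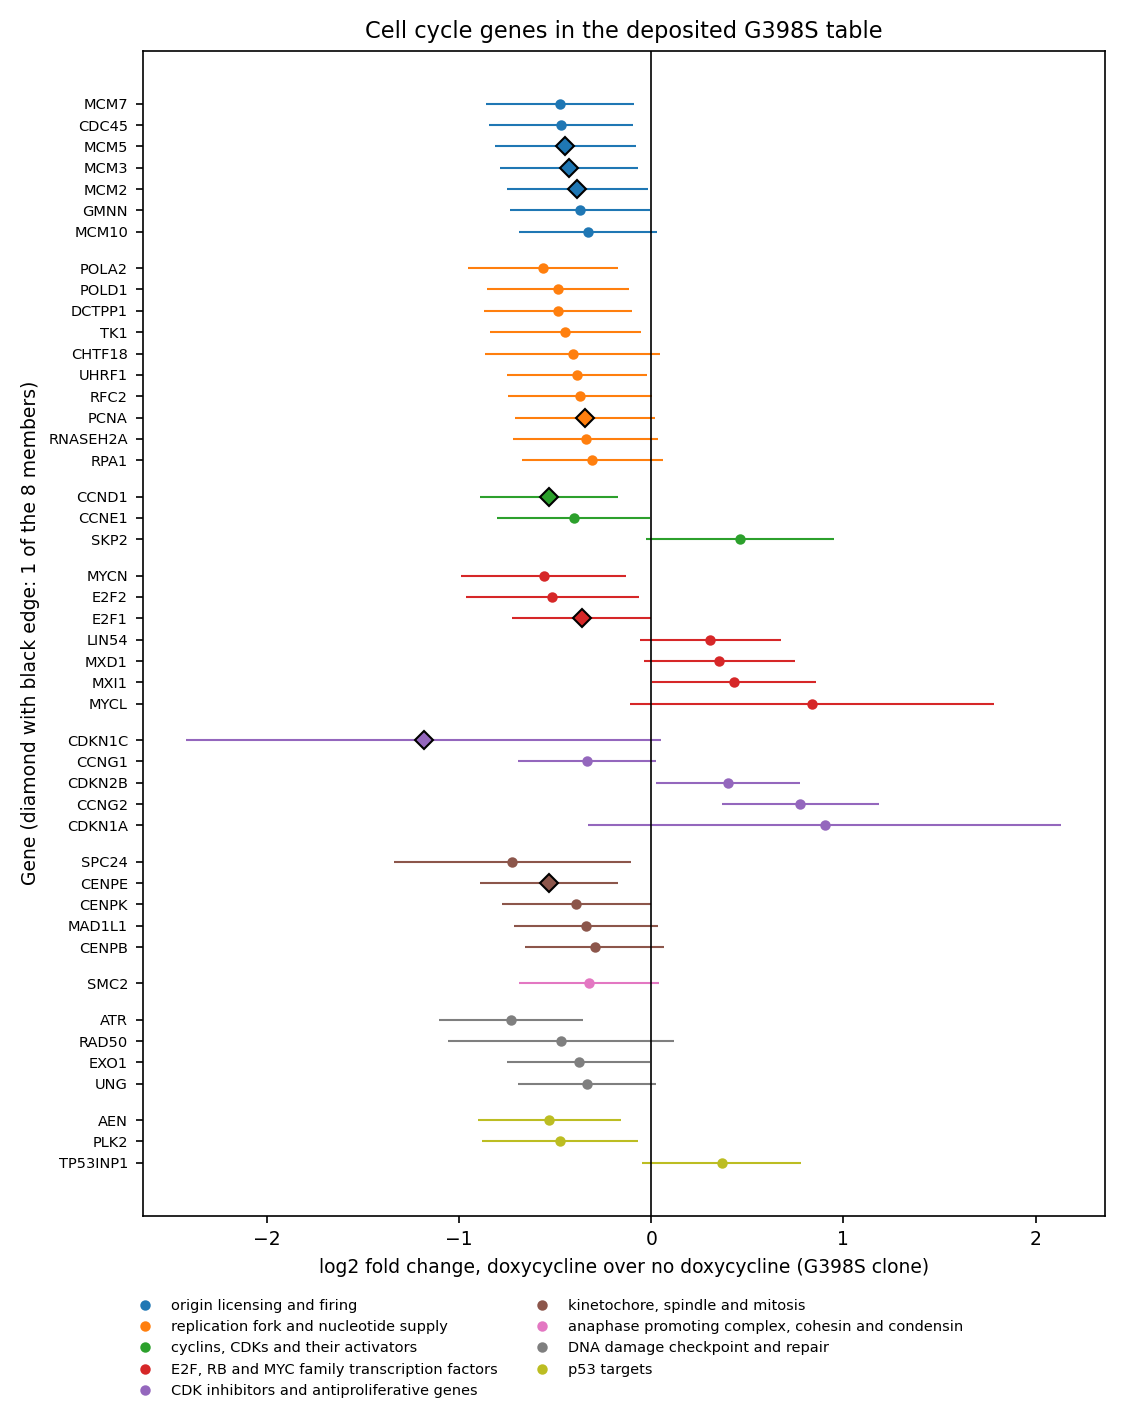
Log2 fold change with over without doxycycline in the G398S clone for the 45 cell cycle genes with a row, coloured by list, with 95% intervals from the implied standard errors; diamonds with a black edge are the 8 genes. Licensing and fork genes all lie below 0, while the E2F, RB and MYC list and the CDK inhibitor list lie on both sides.

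On the kinetochore, spindle and mitosis list 5 of 68 genes had a row, all lower (7.35%, beside 5.86% of tested genes). The 2 shares are near each other, and CENPE, chosen because it was called, is 1 of the 5 and raises that of the list. SPC24, a subunit of the kinetochore complex that grips microtubules, had the largest fall, with 7.80 FPKM with doxycycline against 12.9 FPKM without and a log2 change of -0.72 in the authors' deposited table. CENPK, MAD1L1 and CENPB, a centromere protein, a spindle checkpoint protein and a binder of centromere DNA, fell 1.31-fold, 1.27-fold and 1.23-fold. Of the 33 genes for the anaphase promoting complex, cohesin and condensin, 1 had a row and was lower (3.03%, beside 5.86% of tested genes). It was SMC2, a condensin subunit, 1.25-fold lower.

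In the DNA damage checkpoint and repair list 4 of 34 genes had a row and 4 were lower (11.8%, beside 5.86% of tested genes). ATR, the kinase that senses stalled forks, had the largest fall of the list, with 6.74 FPKM with doxycycline against 11.2 FPKM without (log2 fold change -0.73 in the authors' deposited table, q = 0.00104). EXO1, an exonuclease of mismatch repair, UNG, which removes uracil from DNA, and RAD50 of the break repair complex fell 1.30-fold, 1.26-fold and 1.38-fold. The p53 target list had 3 of 20 with a row, 2 lower and 1 higher. These are 10% and 5% of the list, beside 5.86% and 5.06% of tested genes. AEN, an exonuclease, and PLK2, a kinase, fell 1.44-fold and 1.39-fold. The AEN row spans 0.399 times the RefSeq gene length. TP53INP1 of the same list was 1.29-fold higher.

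**Figure D5:**
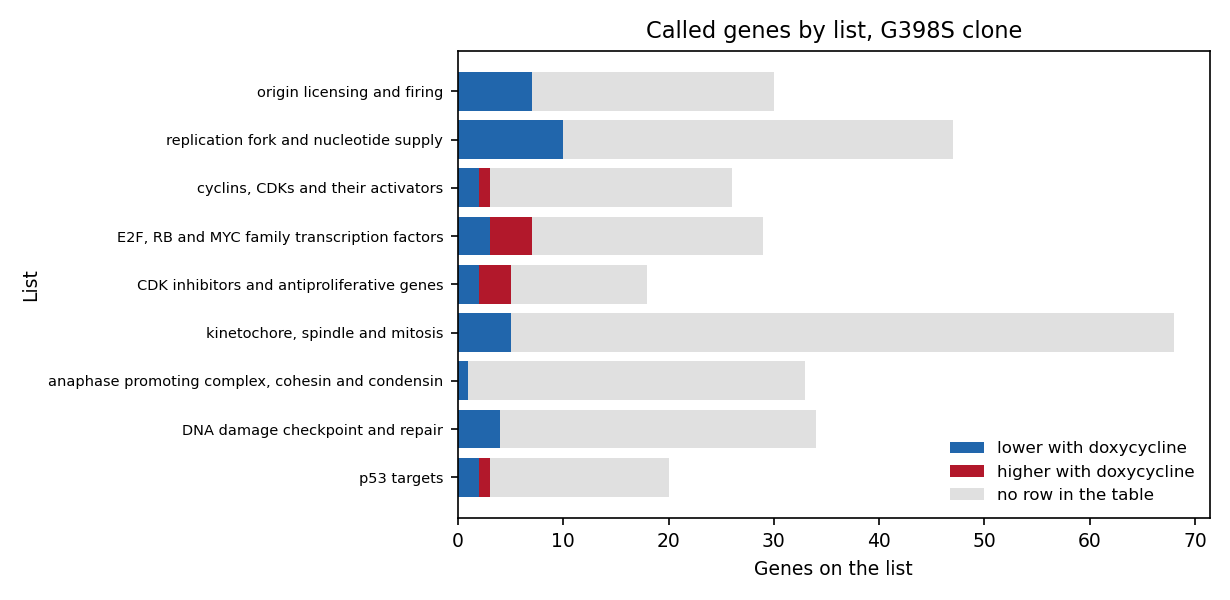
Number of genes on each of 9 cell cycle lists that were lower (blue) or higher (red) with doxycycline in the G398S clone, or had no row in the table (grey). Licensing (7 of 30) and fork genes (10 of 47) are lower in every case with a row, and the mitosis list has 5 of 68. The counts include the 8 genes, which were chosen because they were called.

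In the WT clone, 0 of the 8 genes and 0 of the 305 list genes had a row. The authors' call covered 1.14% of 15109 tested genes there, and 0 of 8 is near that share. The WT table gives no value for any of the 8 genes, and whether the clones differ in their response was not tested. A1CF itself had 80.9 FPKM with doxycycline against 26.3 FPKM without in the G398S clone, and 33.2 FPKM with doxycycline against 19.5 FPKM without in the WT clone.

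Several marker genes of cell types moved in the same G398S comparison, and their part in the falls above was not tested. Of 10 hepatocyte markers 3 had a row, all lower, with a sum of 311 FPKM with doxycycline against 417 FPKM without. TF and APOA1, both made by hepatocytes, accounted for most of it. The APOA1 row spans 140.3 times the RefSeq gene length, so its reads may not come from APOA1 alone, and the TF row spans 0.244 times the RefSeq length. The markers ALB, AFP, TTR, APOB, SERPINA1, HNF4A and FGB had no row. Of 6 cholangiocyte markers 3 were lower, summing to 133 FPKM with doxycycline against 199 FPKM without. Erythroid markers had 4 of 7, all globins and higher, summing to 4535 FPKM with doxycycline against 183 FPKM without, while ALAS2 had no row. The HBB row spans 5.70 times the RefSeq gene length. Stellate, endothelial and immune lists had 2, 1 and 1 of 6 with a row, the most abundant being LYZ with 3.87 FPKM with doxycycline against 7.29 FPKM without.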

How the data were processed

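The build was hg19, with STAR 2.5.0b, Cufflinks 2.2.1, bcl2fastq 2.9.1 and Cuffdiff listed as tools per the submitters' processing notes. Their settings, with the use of strand, were not given in the sources used here. Analysed was 1 table for each clone, with rows for genes that the authors marked as significant. The deposited tables hold FPKM values that the authors pooled over the 3 libraries of a group. Per the file headers they also hold a log2 fold change, a test statistic, which is a score, a p-value in steps of 5e-05 and a q-value. The name of its deposited table marks the WT comparison, whose group labels carry no prefix. The log2 fold change equals the log2 ratio of the FPKM values with no pseudocount. Tables were normalised separately, so no level was compared across clones.

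The number of genes tested is the smallest one for which p times that number over q gives whole ranks (tolerance 0.01), which was 17072 for G398S (next 34144) and 15109 for WT (next 30218); the step was tested on simulated data. The implied standard error is the log2 fold change over the statistic. Row starts in the files count from 0, and 1 was added. Row spans were compared with RefSeq gene lengths on GRCh38.p14 and called wide above 1.5 times. Promoters came from RefSeq, GRCh38.p14. Genes were matched by symbol. Rows listing several symbols stayed in the counts over all rows but were not matched to a gene. A gene found only on such a row therefore counts as having no row.

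The 8 genes and the lists were chosen with earlier results of these data known. Named are the 8 genes, A1CF and up to 5 further genes of each list with the largest absolute log2 fold change; the rest of each list is given by count and range. LIN54, RPA1, RNASEH2A, RFC2 and UHRF1 were named after their values were seen. Computations used Python 3.11.15 with pandas 2.3.3, numpy 2.4.6 and scipy 1.17.1.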

Additional observations from a re-analysis of the deposited data

How the results depend on the processing

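Adding 1 FPKM or 0.1 FPKM to both groups cannot change a direction, so these settings bear on size alone. With 1 FPKM added CDKN1C went from -1.18 to -0.36. After subtracting the median of the rows all 8 genes stayed below 0. The 7 drivers, however, moved by more than their implied standard errors, and PCNA at -0.02 and E2F1 at -0.04 were left close to that median. Of the 8, 7 were left when 1 FPKM was required in the higher group, and 6 at a q of 0.01 or at an absolute statistic of 1.96, a limit chosen after seeing the data. Past a log2 change of 1 in size, the 8 lower genes became 1, the 36 lower list genes 1 and the 9 higher list genes 0. At an absolute statistic of 1.96 the lower list genes were 23 and the higher ones 3. At a q of 0.01 the lower ones were 24 and the higher ones 3. Without rows spanning over 1.5 times their gene, also chosen after seeing the data, 34 list genes were lower and 7 higher. The 4 genes with an E2F-type match were 4 with a window of 150 bases before the start. With that window the other cell cycle genes called lower that hold it went from 13 to 10 of 28. Those called higher stayed at 1 of 8. No paired analysis was possible because the tables hold 1 pooled value for each group, and for the same reason no library could be left out. Unknown depth limits the genes under 1 FPKM most, CDKN1C, CDKN1A and MYCL.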
